A study of Homo sapiens with 3 samples.

Results

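The genes described here are those of the insulin-like growth factor (IGF) axis, with IGFBP1 at their head, in HepG2, a cell line grown from a human liver tumour. Of the 10 genes listed (IGFBP1, IGFBP2, IGFBP3, IGFBP4, IGFBP6, IGF2, IGF1R, INSR, IRS1 and IRS2), 8 had a probe set annotated with that gene alone, among 18417 genes measured in all. These 8 genes were read by 9 probe sets, since IGF1R had 2. IGF2 and IGFBP6 are read by probe sets annotated with several genes, so no value is given for either. The genes were chosen by their place in the pathway and by the high GO minus untreated difference of IGFBP1 in these same arrays, so all values of the listed genes are descriptions without a test.

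Cells were exposed for 24 h to graphene oxide (GO), carbon sheets that carry oxygen groups, or to reduced graphene oxide (rGO), a form with fewer of them, or were left untreated. All were kept in MEM medium. Each material was used at its own EC20, the dose that viability assays tied to a 20% effect, and the labels state no concentration, so the doses may differ. Total RNA (300 ng a sample) from each condition was amplified, labelled and read on 1 Affymetrix array, which gives no replicate and no error for any value. The number of arrays limits the precision, and no difference can be told apart from variation between dishes or hybridisations.

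IGFs bind the receptor kinase encoded by IGF1R, which works like the insulin receptor INSR and passes its signal through the docking proteins IRS1 and IRS2 to PI3-kinase and AKT. Binding proteins (IGFBPs) hold IGFs in blood and tissue fluid and control how much reaches the receptors. The liver is the main source of IGFBP1 in blood, where insulin lowers its transcription through FOXO factors, and where fasting, hypoxia and endoplasmic reticulum or amino acid stress raise it.

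Hepatocyte markers bore out the label: all 8 measured of 9 listed passed the level filter (a mean log2 value over the 3 arrays of at least 6.66, the 40th percentile of genes), with log2 values of 10.77 to 13.49 in the GO array, 11.07 to 13.57 in the rGO array and 10.97 to 13.50 in the untreated array. Their summed log2 values were 98.6 with GO, 98.8 with rGO and 98.3 untreated, but single markers went opposite ways. TTR, the gene of transthyretin, had 12.08 with GO, 11.54 with rGO and 11.38 untreated, and FGB, a fibrinogen chain gene, had 10.77 with GO, 11.52 with rGO and 11.62 untreated. Of the leukocyte markers 1 of 5 measured passed, and of the fibroblast and endothelial markers 2 of 7. The leukocyte gene that passed, CD68, is also made by other cells and had log2 values of 9.98 with GO, 9.51 with rGO and 9.61 untreated. PTPRC, the defining leukocyte gene, lay at 3.56 with GO, 3.76 with rGO and 3.65 untreated. In RNA from whole dishes, fewer expressing cells and less RNA per cell cannot be told apart.

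IGFBP1 stood far above the rest of the axis after GO. Its log2 value was 12.27 in the GO array, 10.55 in the rGO array and 10.28 in the untreated array. Only the GO array was clearly high, and the rGO array lay just over the untreated one. The GO minus untreated difference was 1.99 on the log2 scale, a 3.97-fold higher signal, and of the 18417 genes 0 had a higher one. The next gene past the level filter, BHLHE40, a transcriptional repressor that responds to hypoxia, stood at 1.53. Set against the robust SD (scaled median absolute deviation) of all genes past the filter, 0.244, the IGFBP1 difference was 8.14 times that spread. This spread is between genes and not between replicates.

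After rGO the IGFBP1 difference from untreated cells was 0.26, or 1.20-fold, with 494 genes (2.68% of all) higher. That is 2.29 times the robust SD of the rGO comparison, 0.116, and among genes past the filter IGFBP1 ranked 165 of 11050. Between the exposures, GO minus rGO was 1.72, or 3.30-fold, again with 0 genes higher. The follistatin-like gene FSTL3 came next at 1.52. The GO and rGO differences are taken from the same untreated array, and GO minus rGO follows from them.

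Counting by size, 1 of the 8 measured genes, IGFBP1, was at least 2-fold higher after GO, where 0.253% of genes past the filter were. None was at least 2-fold lower, against 0.914% of genes. After rGO 0 of the 8 passed 2-fold in either direction, where the shares of genes past the filter were 0% for 2-fold higher and 0.0181% for 2-fold lower. In GO minus rGO the count was again 1, IGFBP1, with 0.262% of genes past the filter at least 2-fold higher, and 0 were at least 2-fold lower, against 0.534% of genes. Among all 18417 genes, filtered or not, 32 were at least 2-fold higher and 111 lower after GO. The counts were 0 and 4 after rGO and 37 and 66 in GO minus rGO. The 8 IGF axis genes are counted filtered or not, and IGFBP3 and IRS2 lie under the filter. Without IGFBP1, the 7 other genes lay between -0.07 and 0.37 after GO and between -0.18 and 0.16 after rGO, all short of 1.5-fold. Most genes fell short of it too. Of the 11050 genes past the filter, 211 were at least 1.5-fold higher and 467 lower after GO, and 3 and 14 after rGO.

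**Figure D1:**
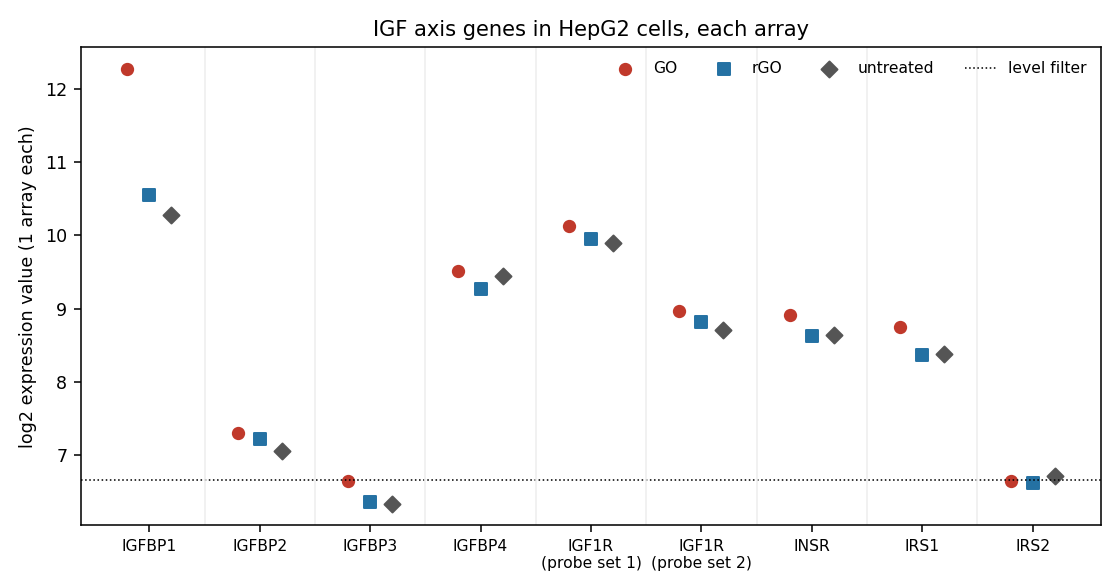
Log2 expression values (vertical axis) of the 9 probe sets of the 8 measured IGF axis genes, with 1 point for each of the GO, rGO and untreated arrays and a dotted line at the level filter of 6.66. IGFBP1 stood at 12.27 with GO, 10.55 with rGO and 10.28 untreated, whereas the points of each other probe set lay close together. Points of different genes come from different probes, and their heights are not comparable.

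The other binding proteins differed little. IGFBP3, the main carrier of IGFs in adult blood, had log2 values of 6.64 with GO, 6.36 with rGO and 6.34 untreated. The GO array was the highest by 0.30 and the rGO array was nearly level with the untreated one, at 0.02. All 3 values lay under the level filter.

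IGFBP2, a binding protein made in quantity by fetal liver and many tumours, had values of 7.30 with GO, 7.22 with rGO and 7.05 untreated. Both exposed arrays were above the untreated one, by 0.24 with GO and 0.16 with rGO, so the exposures lay only 0.08 apart. IGFBP4, which mostly restrains IGF action until proteases cleave it, had 9.52 with GO, 9.27 with rGO and 9.44 untreated. Its GO difference was 0.08 and its rGO difference was -0.18, the lowest rGO value of the axis.

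IGFBP1 and IGFBP3 are direct neighbours on chromosome 7 in the RefSeq gene order, so their unequal values concern adjacent genes. After GO they lay 1.69 apart in their log2 differences from untreated cells, and after rGO 0.25 apart. The 10 nearest measured genes are the 5 on each side of IGFBP1. Of them SNORA5B, IGFBP3, LINC00525, PKD1L1 and PKD1L1-AS1 lay under the level filter. The median GO difference of the 10 was 0.09, with a range of -0.03 to 0.85. Of the 10, 8 were above 0, where 48.7% of all genes were. The highest was SNORA5A, a small nucleolar RNA with close copies nearby whose signals may mix, at 0.85, followed by TNS3, a focal adhesion scaffold, at 0.44. After rGO these neighbours had a median of 0.04 and a range of -0.27 to 0.22. ADCY1, the measured gene next to IGFBP1 on the other side, stood at -0.03 after GO and 0.15 after rGO.

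**Figure D2:**
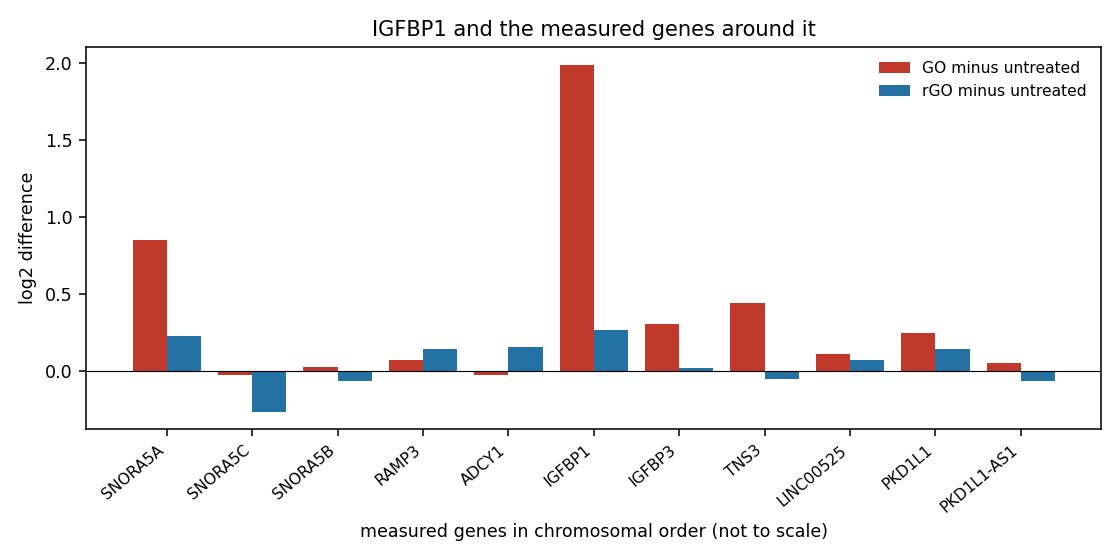
Log2 differences from the untreated array (vertical axis) of IGFBP1 and the 5 measured genes on each side of it in chromosomal order, in red for GO and in blue for rGO. The IGFBP1 bar reached 1.99 after GO, and the neighbours lay between -0.03 and 0.85. SNORA5B, IGFBP3, LINC00525, PKD1L1 and PKD1L1-AS1 lie under the level filter.

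The receptor genes had similar GO differences. The first IGF1R probe set had log2 values of 10.13 with GO, 9.96 with rGO and 9.89 untreated. The second had 8.96 with GO, 8.81 with rGO and 8.70 untreated. Both placed the arrays in the same order, GO above rGO above untreated. Their GO differences were 0.24 and 0.26, only 0.02 apart, and their rGO differences were 0.06 and 0.11. Agreement between probe sets of 1 RNA sample speaks to the reading of that sample and not to other dishes.

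INSR, the insulin receptor gene, had values of 8.92 with GO, 8.62 with rGO and 8.64 untreated. The GO array was higher by 0.27 and the rGO array was level with the untreated one, at -0.02. These GO differences were 1.12 times the robust SD of genes past the filter for INSR and 0.97 times for the first IGF1R probe set, and 10.5% of all genes stood higher than INSR.

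Of the docking protein genes, IRS1 was higher after GO and IRS2 lay near its untreated value. IRS1 had log2 values of 8.75 with GO, 8.37 with rGO and 8.38 untreated. Only the GO array stood out, by 0.37 or 1.29-fold, which was the second highest GO difference of the axis, and 5.27% of all genes stood higher. IRS2, which in liver is itself a FOXO target and carries much of the insulin signal on fasting, had 6.65 with GO, 6.62 with rGO and 6.71 untreated. Both exposed arrays were slightly under the untreated one, at -0.07 with GO and -0.09 with rGO. IRS2 was the 1 measured gene of the axis below 0 after GO. Its mean lay just under the filter level of 6.66.

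In order of the GO difference the genes ran IGFBP1, IRS1, IGFBP3, INSR, IGFBP2, IGF1R, IGFBP4 and IRS2. The gap between IGFBP1 and IRS1 was 1.62. From IRS1 down to IGF1R the whole span was 0.13. With 1 array a condition there is no spread against which the order could be held. IRS1 and IRS2 lay 0.44 apart.

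After GO 7 of the 8 genes were above 0, where 48.7% of all 18417 genes were, and their median was 0.26 against -0.01 for all genes. After rGO 4 of the 8 were above 0, where 44.9% of all genes were, with a median of 0.00 against -0.02. In GO minus rGO 8 of 8 were above 0, where 53.1% of all genes were, with a median of 0.27 against 0.01. Because the genes were chosen with such values known, nothing is read from these counts. Of the 8 genes 6 passed the level filter, and IGFBP3 and IRS2 did not.

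**Figure D3:**
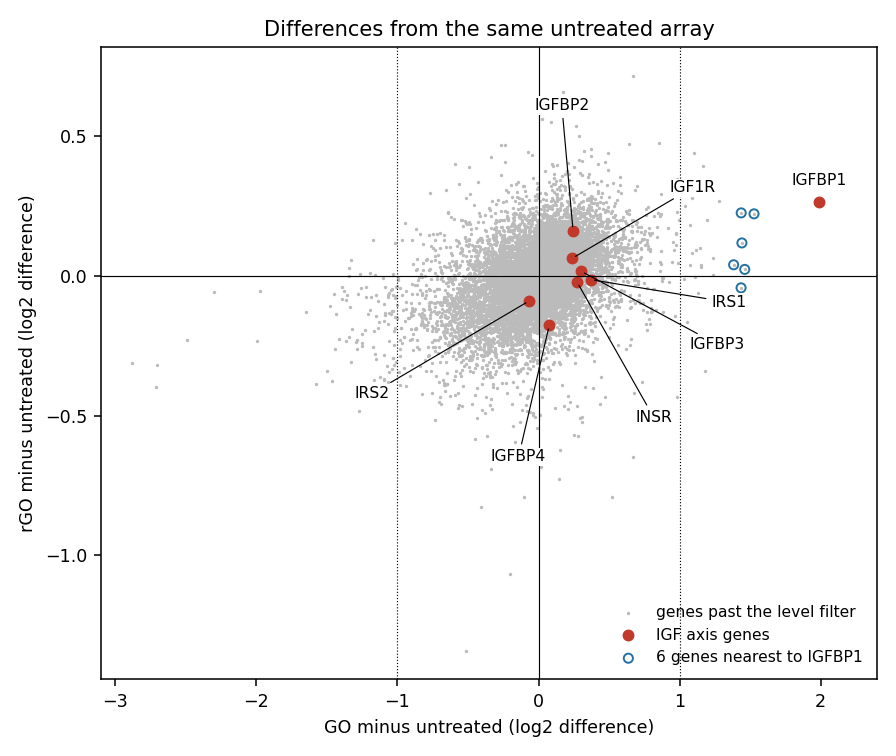
GO minus untreated (horizontal axis) against rGO minus untreated (vertical axis), both as log2 differences, for the 11050 genes past the level filter in grey, the 8 IGF axis genes in red (IGFBP3 and IRS2 lie under the filter) and the 6 genes nearest to IGFBP1 ringed in blue. Dotted lines mark 2-fold on the GO axis. IGFBP1 sits at 1.99 and 0.26, apart from the other red points, which stay between -0.07 and 0.37 after GO. Both axes use the same untreated array, which by itself ties the coordinates together.

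The upstream sequences of the docking protein genes and of IGFBP3 are shown because IRS1 and IRS2 had unequal GO differences and because IGFBP3 adjoins IGFBP1. They are the 250 bases before each gene's start, from RefSeq (GRCh38.p14), and the table matched 8 of the 10 listed genes, so that IGFBP1 and IGF2 were not searched. Capitals mark matches, on either strand, to the hypoxia response core (ACGTG or GCGTG), to CAAAACA, the core of insulin response elements, and to GTAAACA, a FOXO site. The last 2 motifs share the letters AAACA. The windows lie at chr7:45921273-45921522 for IGFBP3, chr2:226799821-226800070 for IRS1 and chr13:109786584-109786833 for IRS2, all on the minus strand, and are written 5′ to 3′ along it.
IGFBP3: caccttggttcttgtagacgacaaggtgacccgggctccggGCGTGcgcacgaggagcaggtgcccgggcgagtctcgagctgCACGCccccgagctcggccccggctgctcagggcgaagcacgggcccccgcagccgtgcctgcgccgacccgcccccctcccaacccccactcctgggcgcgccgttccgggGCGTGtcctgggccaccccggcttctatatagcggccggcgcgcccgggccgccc
IRS1: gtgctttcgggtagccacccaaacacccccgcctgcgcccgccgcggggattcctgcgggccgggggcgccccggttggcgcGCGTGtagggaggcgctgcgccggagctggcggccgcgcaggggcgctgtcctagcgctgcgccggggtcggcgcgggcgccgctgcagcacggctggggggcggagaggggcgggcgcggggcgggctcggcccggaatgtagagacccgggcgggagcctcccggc
IRS2: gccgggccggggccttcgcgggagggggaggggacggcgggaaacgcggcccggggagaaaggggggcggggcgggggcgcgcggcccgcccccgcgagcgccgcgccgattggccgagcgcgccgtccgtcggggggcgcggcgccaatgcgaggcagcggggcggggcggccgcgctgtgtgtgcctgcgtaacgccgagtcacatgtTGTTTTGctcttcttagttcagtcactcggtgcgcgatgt

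IRS2 held CAAAACA, read here as TGTTTTG and starting 40 bases before the gene's start, and 4.30% of 35116 upstream windows of all genes held that motif. IGFBP3 held GCGTG in 3 places and IRS1 in 1, a core found in 32.2% of all windows and, of the matched genes, also in those of IGF1R and IGFBP2. ACGTG occurred in 18.5% of windows and, of the matched genes, in that of IGF1R. GTAAACA occurred in 2.98% of windows and, of the matched genes, in that of IGFBP6. The 3 printed windows were rich in G and C, at 76.0% for IGFBP3, 80.8% for IRS1 and 76.4% for IRS2, against a median of 58.0% over all windows. A match is a run of letters and not a measured binding site.

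The genes closest to IGFBP1 in their pair of differences (Euclidean distance over GO minus untreated and rGO minus untreated, from 3 arrays) were BHLHE40, AGR2, CHST15, TMC7, KRTAP3-1 and CEMIP. BHLHE40 lay at a distance of 0.46, with log2 values of 9.79 with GO, 8.48 with rGO and 8.26 untreated. Its rGO difference was 0.22, and this difference is part of the distance by which the genes were picked. AGR2, which helps proteins fold in the endoplasmic reticulum, lay at 0.55 and had an rGO difference of 0.23. Its rGO and untreated values, 6.45 and 6.23, were both under the filter level, and it passed only through its GO value of 7.66. CEMIP, the last of the 6, lay at 0.65. The rGO differences of CHST15, TMC7, KRTAP3-1 and CEMIP were 0.12, 0.02, -0.04 and 0.04. As the highest GO gene, IGFBP1 had no gene on its upper side, and a likeness over so few arrays is a description only.

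Other genes of the IGF system, listed apart from the 8, showed no 2-fold difference. After GO only 0.253% of genes past the filter were at least 2-fold higher and 0.914% lower, so nothing is read from that absence. Of 19 listed, 17 were measured and 10 passed the filter, of which 6 were above 0 and 4 below after GO, where 51.1% of genes past the filter were above 0. The list's median was 0.03 against 0.01 for all genes past the filter. STC2, an inhibitor of the protease PAPP-A that frees IGF from IGFBP4, was highest at 0.41, with log2 values of 7.997 with GO, 7.71 with rGO and 7.58 untreated. IGF2R, which binds IGF2 and carries it to lysosomes, stood at 0.29 after GO and -0.01 after rGO. IGFALS, the subunit that joins IGFBP3 and IGF in the large complex of blood, stood at -0.22 after GO and -0.19 after rGO. The mRNA-binding proteins IGF2BP1, IGF2BP2 and IGF2BP3 lay at 0.09, 0.11 and 0.00 after GO. IGFBP7, which binds IGFs weakly, was lowest of the list after rGO at -0.28 and stood at -0.03 after GO. IGF1 itself lay under the filter, with log2 values of 4.21 with GO, 4.04 with rGO and 4.12 untreated.

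Genes that carry the receptor signal lay on both sides of 0. Of 51 listed, 45 were measured and 38 passed the filter. After GO 25 were above 0 and 13 below, where 51.1% of genes past the filter were above 0. The median was 0.07 against 0.01 for all genes past the filter. After GO 0 of the 38 passed 2-fold, against 0.253% of genes past the filter for 2-fold higher and 0.914% for 2-fold lower. In GO minus rGO 28 were above 0 and 10 below, where 52.9% of genes past the filter were above 0. The median was 0.11 against 0.01. GRB10, an adaptor that restrains both receptors, was the highest of the 38 at 0.45 after GO and stood at -0.10 after rGO. The receptor phosphatase PTPRF stood at 0.41, the mTOR partner RPTOR at 0.35 and ENPP1, an inhibitor of the insulin receptor, at 0.33. At the low end were PIK3R3 at -0.46 and PIK3R1 at -0.22, both regulatory subunits of PI3-kinase, with RHEB, the activator of mTOR, at -0.28 and the mTOR partner RICTOR at -0.23. After rGO 16 of the 38 genes were above 0 and 22 below, where 46.8% of genes past the filter were above 0. The median was 0.00, and the range ran from FOXO3 at -0.29 to RPTOR at 0.15.

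Genes known to respond to FOXO factors went both ways. All 18 listed were measured and 16 passed the filter, with 9 above 0 and 7 below after GO and a median of 0.01. That is close to all genes past the filter, of which 51.1% were above 0, with a median of 0.01. TXNIP, an arrestin-fold protein that limits glucose uptake, stood at 0.74, with log2 values of 10.05 with GO, 9.21 with rGO and 9.31 untreated. It was the 1 gene of the list at least 1.5-fold higher, as 1.91% of genes past the filter were. TRIB1 stood at 0.58 and CITED2 at 0.45. G6PC1, the catalytic subunit of glucose-6-phosphatase, stood at 0.44 after GO and at -0.36 after rGO, the lowest rGO value of the list, so that GO and rGO lay 0.80 apart. On the other side after GO were KLF15 at -0.43, BCL6 at -0.33, CDKN1B at -0.33 and SESN1 at -0.32. After rGO 4 of the 16 were above 0, where 46.8% of genes past the filter were, and 12 were below. The median was -0.04 against -0.01 for all genes past the filter, and BCL2L11 was highest at 0.15.

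Transcription factors known to act on IGFBP1 had 14 of 19 listed genes measured, all past the filter. After GO 8 were above 0 and 6 below, where 51.1% of genes past the filter were above 0. The median was 0.05 against 0.01 for all genes past the filter. FOXA2, a liver pioneer factor, stood at 0.35, the hypoxia factor EPAS1 at 0.28 and ARNT, its partner, at 0.13. CEBPA, a hepatocyte factor, was lowest after GO at -0.55 and stood at -0.17 after rGO, and the glucocorticoid receptor NR3C1 stood at -0.26 after GO. Lowest of the list after rGO was the liver factor FOXA3, at -0.18, with 0.08 after GO. ATF4, the factor of the integrated stress response, stood at -0.10 after GO and 0.08 after rGO. HIF1A, of this list, and FOXO1, counted in the signal transduction list, stood at -0.03 and 0.05 after GO. Both were named after their values were seen. These are transcript levels, and the activity of such factors is largely set on the protein.

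**Figure D4:**
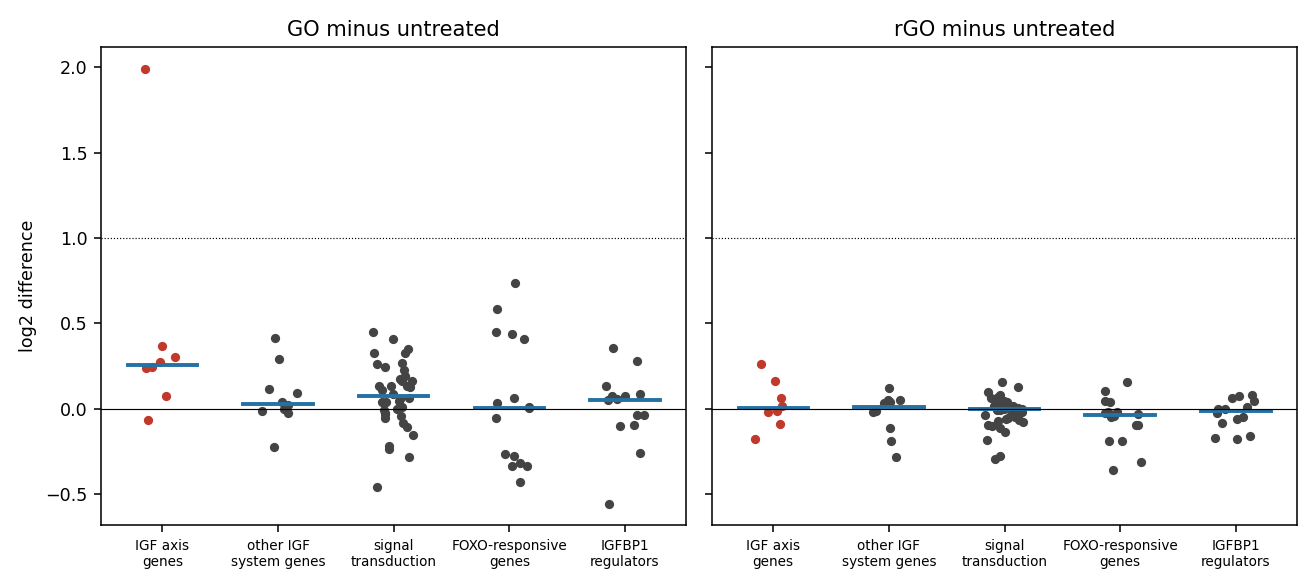
Log2 differences (vertical axis) after GO on the left and rGO on the right for the 8 IGF axis genes in red and, in black, the genes past the level filter of 4 lists: other IGF system genes (10), signal transduction (38), FOXO-responsive genes (16) and IGFBP1 regulators (14). Each point is a gene, moved sideways at random for visibility, blue bars are medians, and the dotted line marks 2-fold. IGFBP1 at 1.99 is the 1 point over that line, and the list medians after GO lie between 0.01 and 0.07.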

How the data were processed

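The deposited values are log2 expression values for 33297 probe sets on 3 arrays, with medians of 6.63 (GO), 6.66 (rGO) and 6.65 (untreated). RMA and MAS5 appear in the submitters' processing notes, with no version and no word on their use, and the genome build is not given in the sources used here. Their near-equal distributions look like those of arrays normalised together, which can compress true differences, and any further scaling is unknown. The platform annotation (old symbols checked by Entrez ID, 0 updated) gave 19460 probe sets with 1 gene symbol, 1754 with several and 12083 not listed. Each of 18417 genes was represented by its probe set with the highest mean, and 11050 passed the 40th percentile filter.

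Comparisons are differences of log2 values between single arrays, counted at 2-fold, with no test. The genes described and the 4 gene lists were chosen with earlier results of these data known. Of each list the text draws on the 4 highest and 4 lowest genes after GO and the extremes after rGO among genes past the filter, together with IGF1, HIF1A and FOXO1, which this rule did not name. The 6 genes nearest to IGFBP1 are named too. The size rule was run on simulated data with differences set well past 2-fold, which checks the calculation and not variation between dishes. The alternatives tried were median centring, quantile normalization, loess (span 0.3), no filter, a 60th percentile filter, averaged probe sets, and sizes of 1.5-fold and 3-fold. Python 3.11.15, numpy 2.4.6, pandas 2.3.3, statsmodels 0.14.6 and matplotlib 3.10.9 were used.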

Additional observations from a re-analysis of the deposited data

How the results depend on the processing

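Under quantile normalization, median centring, loess and averaged probe sets, IGFBP1 stayed between 1.99 and 2.03 in GO minus untreated, 0.25 and 0.28 in rGO minus untreated and 1.72 and 1.77 in GO minus rGO. Of 96 values of the 8 genes under these alternatives 0 changed sign, and the furthest moved by 0.05. Averaging probe sets could move only IGF1R, since each other gene of the 8, IGFBP1 included, has 1 probe set. The count of IGF axis genes past the size was 1 after GO, 0 after rGO and 1 in GO minus rGO under every filter and at 1.5-fold and 3-fold. Among genes past the filter, at 1.5-fold 211 were higher and 467 lower after GO, 3 and 14 after rGO, and 201 and 354 in GO minus rGO. At 3-fold 1 was higher and 8 lower after GO, 0 lower after rGO, and 1 and 7 in GO minus rGO, and fewer or more calls follow from the size itself. The 2 genes at least 2-fold lower after rGO became 4 with no level filter and 1 with the 60th percentile filter, as more or fewer genes were counted. Of 72 list medians under the alternatives, 6 changed sign, all within 0.04 of 0, and the furthest moved by 0.13. With the 60th percentile filter the GO median of the other IGF system genes was 0.09 in place of 0.03, that of signal transduction 0.11 in place of 0.07 and that of FOXO-responsive genes 0.07 in place of 0.01. In GO minus rGO the FOXO-responsive median was then 0.13 in place of 0.00. No paired analysis was possible because each condition has 1 array. With 1 array a condition, no alternative bears on variation between dishes, and the deposited values hold no detection or background measure for IGFBP3 and IRS2, whose means lay under 6.66.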

Other observations

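In the RefSeq gene order each of the 4 tensin genes, which encode scaffolds linking integrins to actin, lies within 2 protein-coding genes of an IGF binding protein gene, and these neighbours of the axis were picked out after their values were seen. TNS4 is the next protein-coding gene to IGFBP4 and had log2 values of 8.98 with GO, 7.94 with rGO and 7.95 untreated. The GO array alone was high, by 1.03, while IGFBP4 stood at 0.08. TNS1, with 1 protein-coding gene between it and IGFBP5 and 2 between it and IGFBP2, had 7.40 with GO, 6.50 with rGO and 6.63 untreated. Its GO difference was 0.77, against 0.24 for IGFBP2 and -0.25 for IGFBP5, which lay under the level filter. TNS3, next to IGFBP3, stood at 0.44 after GO and -0.06 after rGO. TNS2, with 1 protein-coding gene between it and IGFBP6, stood at 0.37 after GO and 0.16 after rGO. Of the 4 tensins, TNS1 passed the level filter of 6.66 only through its GO value. TNS4 alone was at least 2-fold higher after GO, as 0.253% of genes past the filter were, and nothing is read from these counts because the genes were picked by their values.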
